A study of Drosophila melanogaster with 28 samples.

Results

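48 genes of DNA replication and the cell cycle were followed across 18 lists of HMR binding sites in Drosophila melanogaster SL2 cells. They were chosen by name, 25 for replication, 16 as cyclins, kinases and their regulators and 7 for mitosis. All 48 matched 1 gene each of the 13968 protein-coding genes annotated on dm6, and 14 lie on 2L, 14 on 2R, 6 on 3L, 9 on 3R and 5 on X. A gene was called marked in a list when the nearer edge of a listed peak lay within 500 bp of any of its annotated transcript starts.

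HMR is a chromatin protein of the hybrid incompatibility system between Drosophila melanogaster and its sister species and acts in a complex with LHR. It is known from centromere-near heterochromatin and from sites bound by insulator proteins on the chromosome arms. Replication begins when the origin recognition complex, Cdc6 and the product of dup load the Mcm helicase on DNA, after which the GINS complex and the PCNA clamp join the moving fork. Cyclins and their kinases time the cell cycle, E2f1 with Dp turns on many S-phase genes and Rbf holds them back, and polo, aurA, aurB and the regulators of the anaphase-promoting complex act in mitosis.

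The SL2 line is of embryonic origin. Stable hygromycin-resistant lines carried FLAG-HA-HMR on the copper-inducible pMT promoter, either HMR dC-tg, which lacks the C-terminus, or HMR wt-tg, the full-length protein. Both were expressed with LHR and induced with 250 µM CuSO4 over 20 to 24 h at 26 °C, and the cells kept their own HMR. Anti-FLAG therefore reads only the introduced protein and anti-HMR reads total HMR. There were 5 anti-FLAG lists for HMR dC-tg and 5 for HMR wt-tg, and 4 anti-HMR lists for HMR dC-tg and 4 for HMR wt-tg, with all 8 anti-HMR libraries made from chromatin that also gave an anti-FLAG library. Library 5 of each anti-FLAG group was made with the NEBNext kit and all others with Microplex. Which cell type or construct a library holds could not be checked from peak positions. The labels do not say whether replicates were separate cultures, so a p-value here measures the spread between these libraries.

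The DNA under the peaks is shown for 7 members, which cover the 3 gene groups and the binding patterns described below. Each line is the longest exon-free stretch of the 200 bp around the median peak midpoint, read 5′ to 3′ on the strand of the member. Capitals mark matches on either strand to CGATA (the core bound by BEAF-32), to TATCGATA (the DNA replication-related element, which overlaps CGATA) and to TGCATA (the core of the Su(Hw) site). The stretches are chr3L:1247948-1248019 for Psf1, chr2L:13829742-13829836 for Orc5, chr3L:11833579-11833712 for CycA, chr3R:11962969-11963123 for aurA, chrX:15910037-15910236 for CycD, chr2L:10386263-10386446 for Cdk1 and chr3R:8264831-8264969 for Mcm2, on dm6.
Psf1: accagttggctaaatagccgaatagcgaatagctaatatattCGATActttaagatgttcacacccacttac
Orc5: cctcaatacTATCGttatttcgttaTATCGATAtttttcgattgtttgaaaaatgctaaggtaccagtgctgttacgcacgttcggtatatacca
CycA: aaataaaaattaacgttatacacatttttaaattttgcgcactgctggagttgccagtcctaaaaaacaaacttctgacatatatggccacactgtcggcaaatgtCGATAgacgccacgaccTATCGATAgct
aurA: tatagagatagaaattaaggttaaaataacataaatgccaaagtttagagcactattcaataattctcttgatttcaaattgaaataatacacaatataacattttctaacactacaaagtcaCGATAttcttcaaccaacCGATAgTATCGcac
CycD: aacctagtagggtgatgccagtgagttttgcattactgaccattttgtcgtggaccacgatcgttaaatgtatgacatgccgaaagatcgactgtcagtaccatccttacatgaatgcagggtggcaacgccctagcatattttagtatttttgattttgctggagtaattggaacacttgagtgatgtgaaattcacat
Cdk1: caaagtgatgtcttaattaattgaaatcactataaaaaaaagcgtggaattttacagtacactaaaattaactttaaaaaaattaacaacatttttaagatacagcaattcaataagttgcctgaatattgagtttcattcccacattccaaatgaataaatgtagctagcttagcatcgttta
Mcm2: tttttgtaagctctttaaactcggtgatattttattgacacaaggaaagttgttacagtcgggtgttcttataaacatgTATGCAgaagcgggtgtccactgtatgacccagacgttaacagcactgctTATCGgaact
Psf1, Orc5, CycA, aurA and Mcm2 each held at least 1 CGATA core, Orc5 and CycA held the whole TATCGATA element, and CycD and Cdk1 held none of these.

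The lists differed widely in length, from 465 to 9049 peaks with a median of 2210, and gave 200 bp peaks (1 of 46127 was shorter) without height or score. Within each antibody, the number of members marked mostly rose with the length of the list. Lists of like length differed between the antibodies. With HMR dC-tg library 3 of each antibody, 1894 anti-FLAG peaks marked 21 members and 1958 anti-HMR peaks marked 6. The shortest list (anti-FLAG, HMR wt-tg library 2, 465 peaks) marked 4 members, the longest anti-FLAG list (HMR wt-tg library 4, 4427 peaks) marked 37, and the list of 9049 peaks (anti-HMR, HMR wt-tg library 3) marked 33.

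The starts of replication and cell cycle genes were marked more often than those of protein-coding genes at large, with both antibodies. Of the 48 members, 24 (50%) were marked in at least 5 of the 10 anti-FLAG lists, against 19.8% of all protein-coding genes. With anti-HMR, 13 members (27.1%) were marked in at least 4 of 8 lists, against 13.8% of all genes. At least 1 of the 18 lists marked 39 members (81.2%), against 43% of all genes. The median member was marked in 4.5 anti-FLAG and 2 anti-HMR lists, whereas the median gene was in 0 of either. These counts are descriptions of a chosen list and carry no test.

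The excess was of a like size in each of the 18 libraries, the short and the long ones. The share of members marked was 1.93 to 2.75 times the share of all genes. This ratio was 2.46 ± 0.217 in HMR dC-tg and 2.39 ± 0.187 in HMR wt-tg with anti-FLAG (SD, n = 5 each), and 2.21 ± 0.23 in HMR dC-tg and 2.11 ± 0.109 in HMR wt-tg with anti-HMR (SD, n = 4 each).

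**Figure D1:**
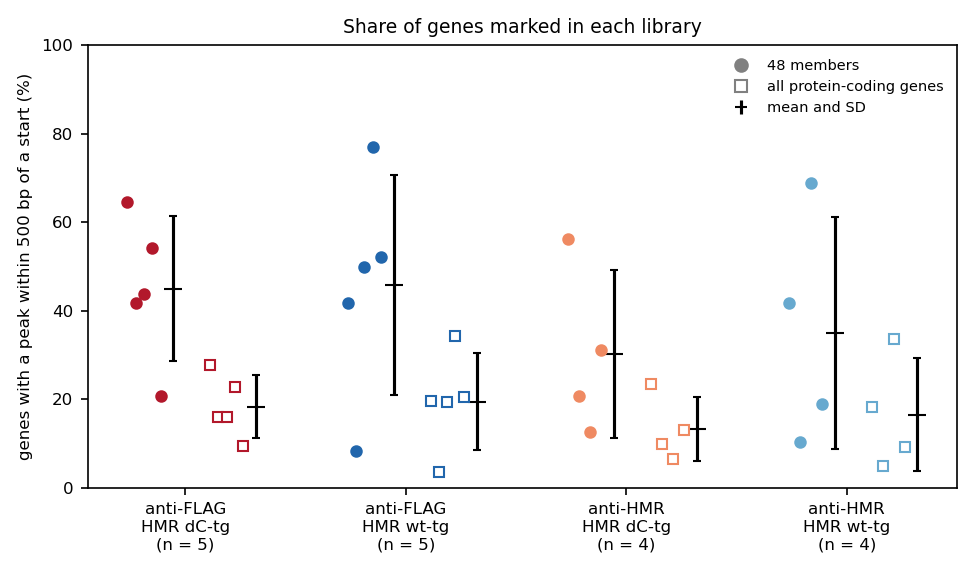
Share of genes with a peak within 500 bp of a transcript start (y axis, %) in each library, as filled circles for the 48 members and open squares for all 13968 protein-coding genes, by antibody and construct. Bars give mean and SD. The member shares run from 8.33% to 77.1% and lie above the shares of all genes in every library.

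The shares were also counted within the 3 gene groups, whose differences were not tested. With anti-FLAG, 12 of 25 replication genes, 8 of 16 cyclin and kinase genes and 4 of 7 mitosis genes were marked in at least 5 of 10 lists. With anti-HMR, 7, 4 and 2 of them were marked in at least 4 of 8 lists. A wider set of 104 other genes of the same pathways gave 54 genes (51.9%) by the anti-FLAG rule and 32 (30.8%) by the anti-HMR rule. Within that set, the anti-FLAG rule was met by 12 of 32 replication genes, 19 of 30 cell cycle regulators and 23 of 42 mitosis genes, and the anti-HMR rule by 5, 10 and 17 of them. At least 1 of the 18 lists marked 84% of the replication members, 68.8% of the cyclin and kinase members and 100% of the mitosis members.

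**Figure D2:**
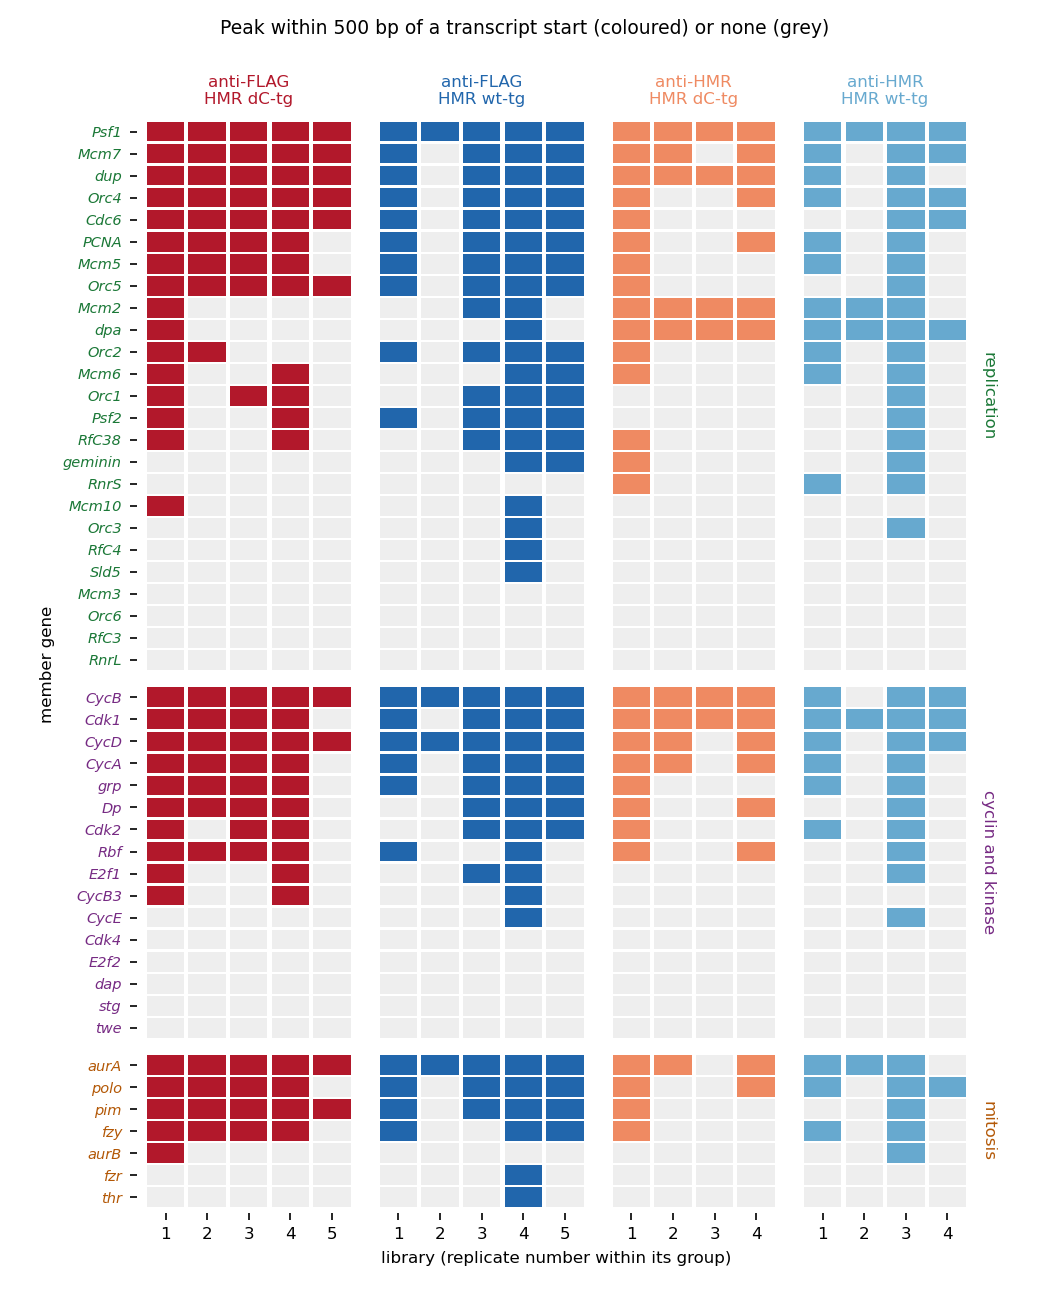
Presence (coloured) or absence (grey) of a peak within 500 bp of a start of each member (rows, ordered by the number of lists within its gene group) in each of the 18 libraries (columns, by antibody and construct). Psf1 is the only member marked in all 18, 9 members are marked in none, and dpa and Mcm2 are filled in the anti-HMR columns and mostly empty in the anti-FLAG columns.

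Among the replication genes, those that load the helicase differed in how many lists marked them. dup, the Drosophila Cdt1, was marked in 5 of 5 HMR dC-tg and 4 of 5 HMR wt-tg lists with anti-FLAG, and in 4 of 4 HMR dC-tg and 2 of 4 HMR wt-tg lists with anti-HMR. Cdc6 was marked in 5 HMR dC-tg and 4 HMR wt-tg lists with anti-FLAG but in only 1 and 2 with anti-HMR. geminin, which binds and inhibits Cdt1, was marked in 0 HMR dC-tg and 2 HMR wt-tg anti-FLAG lists and in 1 anti-HMR list of each construct. By number of lists, dup and Cdc6 thus stood well above geminin.

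The 6 subunits of the origin recognition complex were marked unevenly. Orc4 (5 HMR dC-tg and 4 HMR wt-tg lists) and Orc5 (5 and 4) were marked in 9 of 10 anti-FLAG lists. Orc2 (2 and 4) and Orc1 (3 and 3) were in 6, Orc3 was in 1 (0 and 1) and Orc6 in none. With anti-HMR, Orc4 was marked in 2 HMR dC-tg and 3 HMR wt-tg lists, Orc2 in 1 and 2, Orc5 in 1 and 1, and Orc1 and Orc3 in 0 and 1. Genes whose products form 1 complex were thus not marked as 1 unit.

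The same held for the Mcm2 to Mcm7 helicase. Mcm7 was marked in 5 HMR dC-tg and 4 HMR wt-tg lists with anti-FLAG and in 3 of each with anti-HMR, and Mcm5 in 4 and 4 with anti-FLAG and in 1 and 2 with anti-HMR. Mcm6 was in 2 lists of each construct with anti-FLAG and in 1 HMR dC-tg and 2 HMR wt-tg lists with anti-HMR. Mcm3 was marked in no list. Mcm2 and dpa, the Drosophila Mcm4, were marked in more anti-HMR than anti-FLAG lists. dpa was marked in all 8 anti-HMR lists, 4 per construct, and in 1 anti-FLAG list per construct. Mcm2 was marked in 4 HMR dC-tg and 3 HMR wt-tg anti-HMR lists and in 1 and 2 anti-FLAG lists.

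At the fork, Psf1, a GINS subunit, was marked in all 18 lists, as were 0.838% of all protein-coding genes. Psf2 of the same complex was marked in 2 HMR dC-tg and 4 HMR wt-tg anti-FLAG lists and in 0 and 1 anti-HMR lists, and Sld5 in 1 HMR wt-tg anti-FLAG list alone. PCNA, the sliding clamp, was marked in 4 anti-FLAG and 2 anti-HMR lists of each construct. Of the clamp loader genes, RfC38 was in 2 HMR dC-tg and 3 HMR wt-tg anti-FLAG lists and in 1 anti-HMR list of each construct, RfC4 in 1 HMR wt-tg anti-FLAG list and RfC3 in none. RnrS, the small subunit of ribonucleotide reductase, was in 1 HMR dC-tg and 2 HMR wt-tg anti-HMR lists and in no anti-FLAG list, and RnrL, the large subunit, was in none. Mcm10 was in 1 anti-FLAG list of each construct and in no anti-HMR list.

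In the cyclin and kinase group, CycB, Cdk1 and CycD were marked in the most lists. CycB, a mitotic cyclin, was marked in 5 of 5 lists of each construct with anti-FLAG, and in 4 HMR dC-tg and 3 HMR wt-tg lists with anti-HMR. Cdk1, the partner kinase, was in 4 of 5 anti-FLAG lists and 4 of 4 anti-HMR lists of each construct. CycA was in 4 anti-FLAG lists of each construct and in 3 HMR dC-tg and 2 HMR wt-tg anti-HMR lists. CycD, the G1 cyclin, was in 5 anti-FLAG and 3 anti-HMR lists of each construct, whereas its kinase gene Cdk4 was in none. CycB3 was in 2 HMR dC-tg and 1 HMR wt-tg anti-FLAG lists and in no anti-HMR list.

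CycE, Cdk2, the E2F genes and Rbf were marked in fewer lists than CycB and Cdk1. This did not hold for all G1 genes, since CycD was in 16 lists, as many as Cdk1. CycE was in 1 HMR wt-tg list with each antibody, and Cdk2, its kinase, was in 3 anti-FLAG lists of each construct and in 1 HMR dC-tg and 2 HMR wt-tg anti-HMR lists. Of the E2F genes, Dp was in 4 HMR dC-tg and 3 HMR wt-tg anti-FLAG lists and in 2 and 1 anti-HMR lists, E2f1 was in 2 anti-FLAG lists of each construct and in 0 and 1 anti-HMR lists, and E2f2 was in none. Rbf, the retinoblastoma homologue, was in 4 HMR dC-tg and 2 HMR wt-tg anti-FLAG lists and in 2 and 1 anti-HMR lists. The checkpoint kinase gene grp (Chk1) was in 4 anti-FLAG lists of each construct and in 1 HMR dC-tg and 2 HMR wt-tg anti-HMR lists. The Cdc25 phosphatase genes stg and twe and the kinase inhibitor gene dap were in none.

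Among the mitosis genes, aurA (Aurora A kinase) was in all 10 anti-FLAG lists and in 3 anti-HMR lists of each construct. polo, the Polo kinase, was in 4 anti-FLAG lists of each construct and in 2 HMR dC-tg and 3 HMR wt-tg anti-HMR lists, and pim, the fly securin, was in 5 HMR dC-tg and 4 HMR wt-tg anti-FLAG lists and in 1 anti-HMR list of each construct. fzy, the Cdc20 activator of the anaphase-promoting complex, was in 4 HMR dC-tg and 3 HMR wt-tg anti-FLAG lists and in 1 and 2 anti-HMR lists. The related activator fzr and the separase gene thr were each in 1 HMR wt-tg anti-FLAG list, and aurB (Aurora B) was in 1 HMR dC-tg anti-FLAG list and 1 HMR wt-tg anti-HMR list. In all, 9 members were marked in no list, Mcm3, Orc6, RnrL, RfC3, Cdk4, stg, twe, E2f2 and dap, and all 7 mitosis genes were marked at least once.

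The next question was whether removal of the C-terminus changed binding at these genes. With anti-FLAG, HMR dC-tg libraries 1 to 5 marked 31, 20, 21, 26 and 10 of the 48 members, against 20, 4, 24, 37 and 25 in HMR wt-tg libraries 1 to 5. The ranges overlap, and the lowest and the highest count are both from HMR wt-tg. As shares these were 45% ± 16.3 in HMR dC-tg and 45.8% ± 24.8 in HMR wt-tg (SD, n = 5 each). With anti-HMR, HMR dC-tg libraries 1 to 4 marked 27, 10, 6 and 15 members, against 20, 5, 33 and 9 in HMR wt-tg libraries 1 to 4, or 30.2% ± 19 in HMR dC-tg and 34.9% ± 26.2 in HMR wt-tg (SD, n = 4 each). Within the gene groups, anti-FLAG marked 41.6% ± 15.1 of replication genes in HMR dC-tg and 46.4% ± 27.8 in HMR wt-tg, 46.2% ± 20.5 and 42.5% ± 20.4 of cyclin and kinase genes, and 54.3% ± 15.6 and 51.4% ± 26 of mitosis genes (SD, n = 5 each). Both differences over the 48 members, -0.833 points with anti-FLAG and -4.69 points with anti-HMR, are smaller than the SD within a group.

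The same comparison was made over all protein-coding genes. Their share marked with anti-FLAG was 18.3% ± 7.06 in HMR dC-tg and 19.4% ± 10.9 in HMR wt-tg (SD, n = 5 each), with p = 0.849 in a two-sided exact permutation test. With anti-HMR it was 13.2% ± 7.31 in HMR dC-tg and 16.5% ± 12.7 in HMR wt-tg (SD, n = 4 each), with p = 0.686 in the same exact test. Every list was also cut to its first 465 peaks. The anti-FLAG share of all genes was then 0.43 points higher in HMR dC-tg (exact permutation p = 0.00794, the smallest possible). It was 3.8% to 3.99% in the HMR dC-tg lists and 3.38% to 3.65% in the HMR wt-tg lists. The cut changes the length of the lists and also keeps only their first peaks. The cause of the change of sign was not tested.

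No single member passed a test between the constructs. Across the 4974 genes in at least 1 anti-FLAG list, the exact test on presence reached an unadjusted p under 0.05 for no gene with more HMR dC-tg lists (0%) and for 21 genes (0.422%) with fewer, none of them a member, and Benjamini-Hochberg adjustment left 0 genes. Across the 5257 genes in at least 1 anti-HMR list, the smallest unadjusted p of any gene was 0.143 (exact permutation test), and 0% of all genes passed an unadjusted 0.05 in either direction. The design is too small to call single genes: with 5 lists against 5, at least 790 of the genes would have to reach the smallest possible p of 0.00794 before any adjusted p fell under 0.05. The largest differences among members with anti-FLAG were 2 lists. Rbf was marked in 4 HMR dC-tg and 2 HMR wt-tg lists, Orc2 in 2 and 4, Psf2 in 2 and 4 and geminin in 0 and 2. With anti-HMR, dup was in 4 HMR dC-tg and 2 HMR wt-tg lists and no other member differed by more than 1.

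By antibody, more members were marked with anti-FLAG than with anti-HMR in most chromatins. The difference in share, anti-FLAG minus anti-HMR, was 8.33, 20.8, 12.5 and 41.7 points in the 4 HMR dC-tg chromatins that both antibodies share, and 0, -2.08, 31.2 and 8.33 points in the 4 HMR wt-tg chromatins. It averaged 15.1 ± 15.2 points (SD, n = 8) and was positive in 6 of 8. For all protein-coding genes the difference was 4.97 ± 5.84 points (SD, n = 8), positive in 7 of 8 (exact two-sided sign-flip permutation test, p = 0.0312). With every list cut to its first 465 peaks, the mean difference was 2.08 points for members and 1.19 points for all genes. Peaks within 500 bp of a protein-coding start made up 74.4% to 84.9% of each anti-FLAG list and 35.6% to 70.8% of each anti-HMR list. With the ratio to all genes the antibodies were closer, 2.42 ± 0.195 with anti-FLAG (SD, n = 10) and 2.16 ± 0.174 with anti-HMR (SD, n = 8).

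The members called by 1 antibody only split unequally. In all, 13 members met the anti-FLAG rule and not the anti-HMR rule (27.1%, against 8.1% of all genes), namely Mcm5, Orc1, Orc2, Orc5, Cdc6, RfC38, Psf2, Cdk2, Dp, Rbf, grp, fzy and pim. Only dpa and Mcm2 met the anti-HMR rule and not the anti-FLAG rule (4.17%, against 2.08% of all genes). In the 8 shared chromatins, dpa was marked by anti-FLAG in 2 and by anti-HMR in 8, Mcm2 in 3 and 7, and RnrS in 0 and 3. In the other direction, Orc5 and pim were each marked by anti-FLAG in 7 and by anti-HMR in 2.

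Single genes could again not be called. Of 5992 genes tested over the 8 chromatins, 40 (0.668%) had more anti-FLAG lists and 76 (1.27%) fewer at an unadjusted p under 0.05 (exact sign-flip permutation test), and 0 passed after adjustment. dpa was the only member among them (exact sign-flip permutation test, p = 0.0312, adjusted p = 0.827). Orc5 and pim had p = 0.0625 and Mcm2 p = 0.219 in the same exact test.

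**Figure D3:**
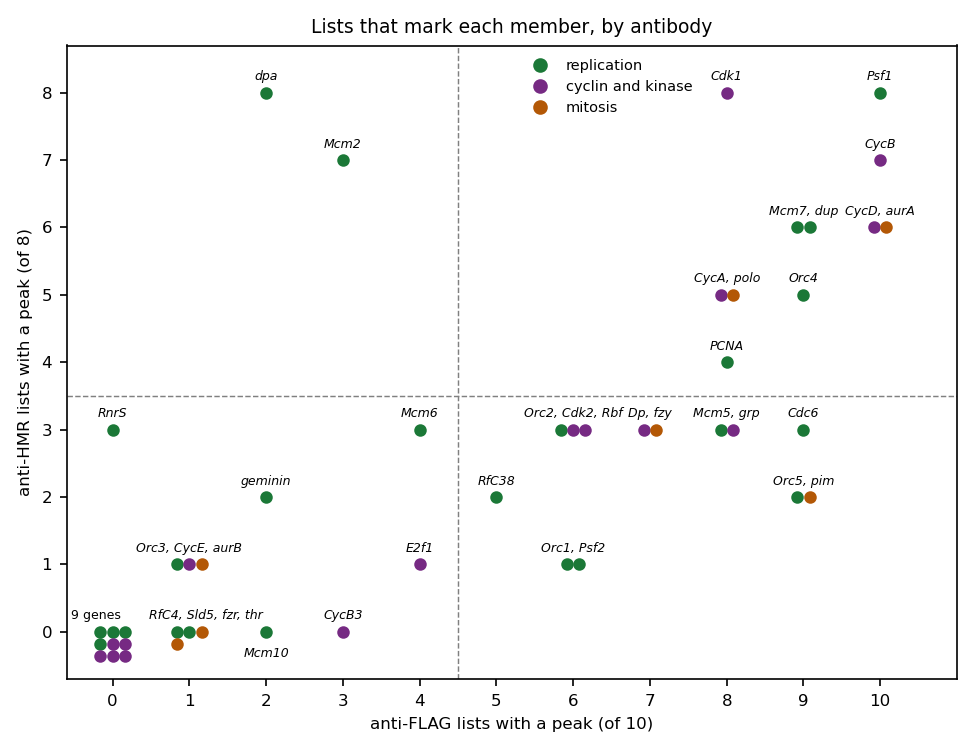
Number of anti-FLAG lists (x axis, of 10) against the number of anti-HMR lists (y axis, of 8) that mark each member, coloured by gene group, with points of equal counts drawn side by side or just below each other and dashed lines at the 2 thresholds. The upper right holds 11 members, the lower right 13, and the upper left only dpa and Mcm2.

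The peaks of marked members mostly lay just upstream of the start. Positions are not given here for other marked genes, so this cannot be called particular to the members. For each of the 39 marked members, the site called in the most lists was taken, and its median midpoint was within 100 bp of the start for 28 and within 200 bp for 34. It was upstream for 36 members and downstream for 3, dpa, CycE and Rbf, with a median of -55 bp. By annotation, 28 of these midpoints fell between genes, 8 in a 5′ UTR and 3 in an intron. At Rbf the downstream site, at 62 bp, was in 5 lists and an upstream site, at -223 bp, was in 4, with 3 anti-FLAG lists each.

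At the members marked in the most lists, the same place was called again and again. At CycB (chr2R:22806881-22807200) the peak midpoints stood at -152 to -32 bp from the start (negative is upstream) in 17 lists, and at Orc4 (chr2R:24797365-24797618) at -104 to -50 bp in 14 lists. At Mcm7 (chr3L:8891082-8891427) they stood at -415 to -269 bp in 15 lists and at CycD (chrX:15910009-15910306) at -530 to -432 bp in 16 lists. At Cdk1 (chr2L:10386173-10386706) midpoints spread more widely, at -344 to -10 bp in 16 lists, and at aurA (chr3R:11962738-11963227) they ran from -287 to 3 bp in 16 lists. polo (chr3L:20309812-20310118, 13 lists), CycA (chr3L:11833420-11833749, 13 lists), Cdc6 (chr3L:8633969-8634275, 12 lists) and PCNA (chr2R:20262769-20263081, 12 lists) had median midpoints at -72, -35, -25 and -14 bp, in that order. The dpa site (chr2R:7499865-7500220) had its median midpoint at 68 bp, in the 5′ UTR, and the Mcm2 site (chr3R:8264742-8265072) at -39 bp.

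**Figure D4:**
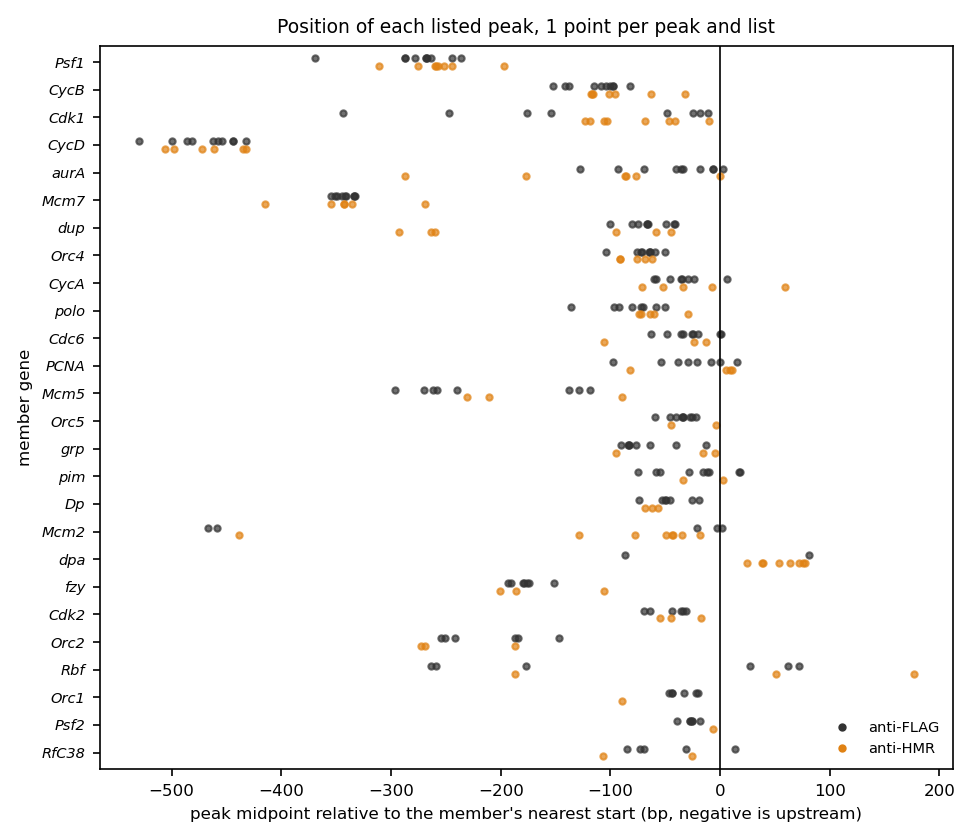
Midpoint of each listed peak relative to the nearest start of the member (x axis, bp, negative is upstream), 1 point per peak and list, for the 26 members that met either rule (rows, by the number of lists). Most points fall between the start and 150 bp upstream; CycD, Mcm7 and Psf1 have their points well upstream of it, and those of dpa lie mostly downstream.

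Several of these peaks lie nearer to another gene. A start on the opposite strand within 500 bp was annotated for 18 members (37.5%), against 27.8% of all protein-coding genes. Psf1, the member in all 18 lists, is the clearest case: its site (chr3L:1247775-1248146) lay at -265 bp from the Psf1 start but 78 bp from the start of Sac1, whose 5′ UTR holds the midpoint, and no list had a peak whose nearest start was that of Psf1. The site of fzy stood at -180 bp from its start and 50 bp from cni, and that of Mcm5 at -231 bp and 67 bp from Art1. dup has 2 annotated starts, and a start of SRPK lies 110 bp from 1 of them. The main dup site, in 13 lists, stood at -67 bp from the other, with dup as the nearest gene. dpa has the start of didum 2 bp away, so this pair cannot be told apart by distance. grp has no opposite start within 500 bp but shares its annotated start with squ, and the grp site stood at -77 bp from that start. Every grp peak lay equally far from both, so grp and squ cannot be told apart either.

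In a count chosen after seeing the data, each peak was assigned only to the gene with the nearest start, or to both genes at a tie. This left 19 members (39.6%) by the anti-FLAG rule, against 13.5% of all genes, and 11 (22.9%) by the anti-HMR rule, against 9.21%. Among the 19, grp was kept through ties with squ. Psf1, fzy, Mcm5, Dp and RfC38 dropped below the anti-FLAG rule, and Psf1 and dup below the anti-HMR rule. Among genes with no opposite start within 500 bp, 14 of 30 members (46.7%) and 13.5% of all such genes met the anti-FLAG rule, and 8 members (26.7%) and 9.96% of all such genes met the anti-HMR rule. Among genes with one, 10 of 18 members (55.6%) and 36.2% of all such genes met the anti-FLAG rule, and 5 members (27.8%) and 23.6% of all such genes met the anti-HMR rule. With anti-HMR the members with a divergent start were thus close to the share of all such genes.

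The place of the members' peaks in the lists was described for each antibody. The lists hold no score, but regions shared by anti-FLAG lists came in a like order in each, so the place of a peak in its list, from 0 at the top to 100 at the bottom, was read as a rank. Over the 10 anti-FLAG lists, 18.8% of the 218 pairs of a member and a list that marks it stood in the first of 4 equal parts of the list and 34.4% in the third, against 24.6% and 26% of the 26347 pairs for all genes. With anti-HMR the shares of member pairs were 26.4% in the first and 24% in the third part, against 30.3% and 23.1% for all genes. Counted over all pairs of a gene and a list, marked or not, members were still in excess in the first part. With anti-FLAG 8.54% of member pairs were marked there, against 4.64% for all genes (ratio 1.84). With anti-HMR it was 8.59% against 4.51% (ratio 1.9). In the third part these ratios were 3.19 with anti-FLAG and 2.27 with anti-HMR.

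The place differed between members marked in similar numbers of lists. At the main site the median place in anti-FLAG lists was 6.56 for CycB, 11.2 for Psf1, 27.5 for Orc4 and 28.8 for dup, but 63.2 for aurA, 64.2 for Mcm7 and 74.6 for CycA, which were in as many or nearly as many lists. The dpa site was at 4.55 in anti-HMR lists and at 64.3 in its 2 anti-FLAG lists, and that of Cdk1 was at 18.5 with anti-HMR and 44.9 with anti-FLAG.

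With each list cut to its first 465 peaks, the length of the shortest, few members met either rule. Only CycB and Psf1 (4.17% of members) were then in at least 5 of 10 anti-FLAG lists, against 3.71% of all genes, and only dpa and Cdk1 (4.17%) in at least 4 of 8 anti-HMR lists, against 2.52%. Each single list still marked 1 to 4 members, 0.827 to 2.47 times the share of all genes. Where the start itself had to lie inside the peak, 15 members (31.2%) met the anti-FLAG rule, against 10.8% of all genes, and 8 (16.7%) the anti-HMR rule, against 5.93%. CycD was in 0 lists when the peak had to lie within 250 bp, and grp in 0 when only its longest transcript was used.

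**Figure D5:**
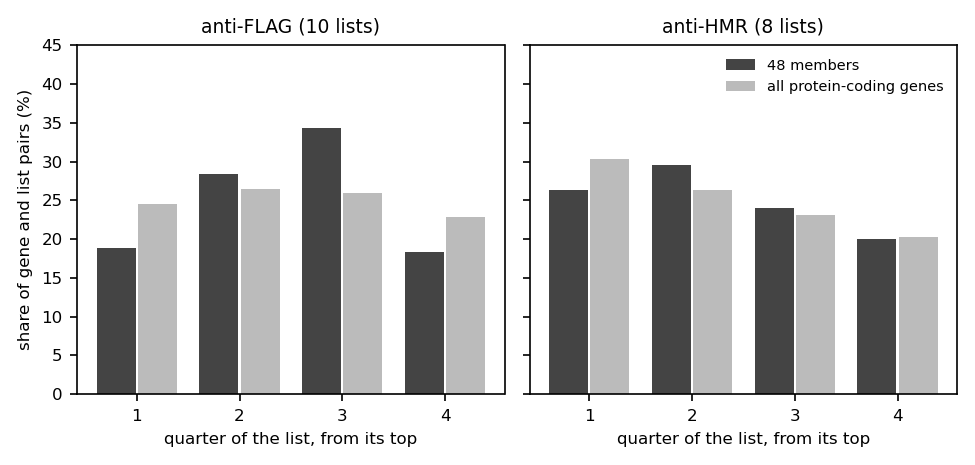
Share of pairs of a gene and a list that marks it (y axis, %) by the part of the list, cut in 4 equal parts, in which the first-listed peak of the gene stands (x axis, 1 is the top), for the 48 members (dark) and all protein-coding genes (light), with anti-FLAG and anti-HMR. Member pairs with anti-FLAG are fewest in the first and last parts and most in the third (34.4%).

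Sequence motifs of promoters were then counted in the 250 bp before and 50 bp after the start of the longest transcript, on both strands. An E2F site (TTTCCCGC, TTTGGCGC, TTTCGCGC or TTTGCCGC) was present in 17 of 48 member promoters (35.4%), of which 14 were replication genes, and in 6.46% of all promoters. It was present in 6 of the 24 members that met the anti-FLAG rule and in 11 of the other 24, and in 6.66% of all promoters that met the rule and 6.42% of those that did not.

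The CGATA core showed the other pattern. It was present in 27 member promoters (56.2%) and in 46.7% of all promoters. By the anti-FLAG rule, 18 of the 24 marked members (75%) and 9 of the other 24 (37.5%) held it, and 62.7% of all marked and 42.8% of all other promoters. The whole TATCGATA element was in 6 of the marked members, as in Orc5 and CycA above, and in 2 of the others, and in 16.4% of all marked and 7.16% of all other promoters. GGTCACAC, the site of M1BP, was in 5 marked and 5 other members, and in 17.4% of all marked and 5.01% of all other promoters. A match is a run of letters and not a measured site.

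In the 200 bp around the peak midpoint, member sites were set beside other HMR sites at starts. Rbf, marked in 6 anti-FLAG lists, had no single site in at least 5 of them. Of 23 member sites in at least 5 anti-FLAG lists, 16 (69.6%) held CGATA and 5 (21.7%) TATCGATA, against 58.6% and 15.7% of 1911 such regions near any protein-coding start. TGCATA was in 2 of the 23 (8.7%), against 9.73%. An E2F site was in 3 (13%), against 5.81%, and GGTCACAC in 3 (13%), against 16.3%. GAGAG, the GAF site, was in 0 of the 23, against 14.7%.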

How the data were processed

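Chromatin immunoprecipitation with anti-FLAG (10 libraries) or anti-HMR (8) was followed by single-end sequencing. Per the labels and the methods of the study, the authors used Bowtie2 2.2.9 for alignment to dm6 and SAMtools 1.3.1 for a filter on mapping quality, and called 200 bp peaks of the factor type with HOMER 4.9, library by library. Whether input entered the peak calls is not given in the sources used here. The deposited lists give peak positions only, so depth and height are unknown and no interval can be given. The 10 input libraries were not used on their own.

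Peaks were joined to transcript starts of the Ensembl 115 annotation of dm6 (any base within 500 bp). No peak passed a chromosome end. The 48 members and all lists of genes and motifs were chosen with earlier results of these data known. Members in at least 5 anti-FLAG lists, the rule for reliable sites in the study, or in at least 4 anti-HMR lists were named with counts, those in the most lists with positions, those in fewer with counts and those in none together. Members with the largest differences were also named, and other genes only where they share a start with a member.

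Presence per gene was compared by exact two-sided permutation tests over libraries, or by sign flips over the 8 chromatins shared by input, with Benjamini-Hochberg adjustment over all genes tested. Members as a list were described without a test. The place in the list was read as a rank: over shared regions, Spearman's rho between lists was 0.608 to 0.96 for 45 anti-FLAG pairs and 0.395 to 0.91 for 28 anti-HMR pairs, a description over regions. Alternatives changed the distance, the starts used, the list length, the number of lists and the libraries. Scripts were tested on simulated data and used Python 3.11.15, numpy 2.4.6, scipy 1.17.1, pandas 2.3.3 and matplotlib 3.10.9.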

Additional observations from a re-analysis of the deposited data

How the results depend on the processing

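The count of 24 members by the anti-FLAG rule was 23 to 24 with any 1 library left out, and that of 13 by the anti-HMR rule 12 to 13. They were 15 and 8 when the start had to lie inside the peak, and 2 and 2 when every list was cut to the length of the shortest. At least 3 of 10 anti-FLAG lists marked 28 members (24.8% of all genes) and at least 2 of 8 anti-HMR lists marked 27 (23.6% of all genes). With 1 library left out, the difference in member share between HMR dC-tg and HMR wt-tg ran from -10.2 to 6.98 points with anti-FLAG and from -13.4 to 6.6 points with anti-HMR, so neither has a stable direction, and that between anti-FLAG and anti-HMR ran from 11.3 to 17.6 points but was 2.08 points with cut lists, against 15.1 points with whole lists. The anti-FLAG share of all genes, -1.1 points in HMR dC-tg against HMR wt-tg, turned to 0.43 points with lists cut to equal length (exact permutation p = 0.00794), to 1.41 points without both NEBNext libraries (exact permutation p = 0.886), to 1.14 points without HMR dC-tg library 5 and to 2.61 points without HMR wt-tg library 4. Leaving out 1 library at a time gave -5.09 to 2.61 points for it. The causes were not tested. No alternative gave an adjusted call for a single gene, which the number of libraries hardly allows. Counts of lists for a member and an antibody, 96 in all, were taken as changed only past a set fold limit, or to or from no list. By that limit, 68 were lower with cut lists, 26 with the start inside the peak and 12 with the nearest start only. With the longest transcript only, 5 were lower, and at 250 bp 2 were lower, while 5 were higher at 1000 bp. None passed the limit with peak midpoints, where smaller changes, as at CycD, were not counted. No paired analysis was possible because the labels give the 2 constructs no shared replicate numbers, while the antibodies were paired by chromatin.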
